A study of Mus musculus with 12 samples.

Results

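The genes described here are the nuclear subunits of the mitochondrial respiratory chain and ATP synthase, together with the uncoupling proteins. They were found by symbol, as genes named Nduf, Uqcr, Cox4 to Cox8, Atp5 or Ucp1 to Ucp3 with at least 1 count in the 12 libraries. This gave 81 of the 22609 genes in the count tables. Of 83 symbols that fit the pattern, Ndufs5 and Cox8c had 0 counts in every library and were left out. The 81 members were 34 subunits of complex I, 8 of complex III, 17 of complex IV, 15 of complex V, 4 associated proteins and 3 uncoupling proteins. The list was chosen by symbol and, for Ucp2, selected on its fall in CPM against T0, so the values of Ucp2 are given as a description, with no test, and Ucp2 is left out of all counts of members called.

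Complexes I, III and IV pass electrons from NADH and ubiquinol to oxygen and pump protons across the inner mitochondrial membrane, and complex V, the ATP synthase, lets the protons back to make ATP. Uncoupling proteins are carriers of the same membrane; Ucp1 is the proton leak of brown fat, Ucp3 is found mainly in muscle, and Ucp2 is found in many tissues and in proliferating cells. Neural stem cells are known to rely on glycolysis more than neurons, which depend on oxidative phosphorylation. The mitochondrial genome encodes some of the subunits, and those were not analysed here.

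RNAseq was made from polyA RNA of mouse adherent neural stem (ANS) cells, which grow as a monolayer, were derived from normal embryonic brain at E14.5 and differentiate towards GABAergic neurons. T0 was proliferating cells in growth medium with FGF2 and EGF (3 libraries), T1 cells 2 days after a change to medium D1, with lower growth factors (3 libraries), T2 cells 2 days after a change to medium B, which holds FGF2 and BDNF and no EGF (4 libraries), and T3 cells 10 days after that change, labelled GAD+ (2 libraries, numbered 1 and 4). No allele or knockdown was carried by any of these samples, and all were unsorted cultures. The series calls the libraries biological replicates and does not say whether they came from separate lines or embryos, so the p-values measure the spread between these samples. In such bulk RNA, fewer cells of a type and less RNA per cell cannot be told apart.

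The libraries held 8910724 to 16631614 counts on genes, with a median of 12601169. The 6 cycling markers summed to 1375 to 2166 CPM (counts scaled to the TMM-normalised library size) at T0, 75.1 to 197 at T1, 110.2 to 244 at T2 and 420.3 to 753 at T3. The 7 neuron markers summed to 899.9 to 972 at T0, 2067 to 2617 at T1, 2049 to 2603 at T2 and 1710 to 2748 at T3. Of the T0 sum, Mtap2 alone was 879 to 921 CPM. Progenitor markers summed to 5371 to 7430.5 at T0 and 5424 to 5619 at T3. Astrocyte markers were at 767 to 2068 and 1303 to 1605, and oligodendrocyte markers at 3156 to 3617.5 and 4782 to 5891. All 8 microglia and macrophage markers had at most 3 counts in every library. T0 replicate 3 stood apart from the other T0 libraries, with a mean chi-square per gene of 101 and 105 against them, compared with 3.28 between those 2. Values without it are given below for some results, among them Ucp2, the counts of members called, the largest single changes and the summed subunits. They are not given for the medians over members or for the gene lists.

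The RefSeq promoter table (GRCm38.p6, from 250 bases before to 50 after each gene's start) held 57 of the 68 ubiquitous subunits of complexes I, III, IV and V and 8 of the other 13 members. Each promoter was searched on both strands for 4 motifs of factors known to act on respiratory genes. The NRF1 letters CGCATGCGC were in 8 of the 57 (14.0%), against 1.95% of all 27025 promoters and 4.35% of the 8828 of genes tested at T1. The YY1 letters AAGATGGCG were in 7 (12.3%), against 1.64% and 3.61%, and all but 1 of these matches, that of Atp5j, lie after the start. The GABPA letters CCGGAAGT were in 5 (8.77%), against 4.31% and 9.07%, so the share was near that of tested genes. The ESRRA letters TCAAGGTCA were in 1 (1.75%), against 0.466% and 0.34%. The 4 strings of letters do not contain each other, none was found in the 8 other members, and a match is a description of the sequence only. The NRF1 matches well before the start are printed, since this motif has the highest share among the members, with 1 example of each other motif. Capitals mark the motif, and each sequence is on the strand of its gene.

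Ndufa11, NRF1, chr17:56717693-56717722, plus strand: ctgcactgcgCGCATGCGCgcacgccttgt
Cox6a1, NRF1, chr5:115349100-115349129, minus strand: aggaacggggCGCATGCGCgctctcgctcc
Atp5k, NRF1, chr5:108434429-108434458, minus strand: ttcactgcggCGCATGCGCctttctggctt
Atp5g2, NRF1, chr15:102671069-102671098, minus strand: gctccggccgCGCATGCGCagagccttccc
Atp5l, NRF1, chr9:44920963-44920992, minus strand: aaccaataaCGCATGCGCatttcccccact
Uqcr11, GABPA, chr10:80406869-80406898, minus strand: ttctctcctccCCGGAAGTagatgtcaatg
Atp5j, YY1, chr16:84835045-84835074, minus strand: aagtgtaggaAAGATGGCGgagtcttagct
Atp5g3, ESRRA, chr2:73911359-73911388, minus strand: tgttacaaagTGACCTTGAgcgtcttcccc

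Of these 8 genes, Ndufa11 is the only one whose count changed past the threshold in any comparison below.

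Levels between genes were compared in FPKM, which are scaled to transcript length. At T0 the mean FPKM of the 68 ubiquitous subunits had a median of 153, with a median of 116 in complex I, 182 in complex III, 469 in complex IV and 212 in complex V. Atp5b, the catalytic beta subunit of the ATP synthase, was the highest at 1459 FPKM, and Cox7b, a small subunit of cytochrome c oxidase, followed at 1067. The tissue isoforms were far lower, with a median of 0.0982 FPKM and a highest value of 2.59 for Cox7a1, the heart and muscle form of subunit VIIa. Cox4i1, the ubiquitous form of subunit IV, was at 666 FPKM and Cox4i2, its lung form, at 0.184.

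Some low levels belong to genes with copies elsewhere. In 18 of the 81 members, a stretch of the transcript occurs at another place of the NCBIM37 genome (the assembly named mm9) over at least 50 bases at 98% identity or more, and in 8 the copied stretches cover more than 50% of the transcript. These 8 were Atp5g2 (100%), Atp5l (92.6%), Uqcrb (90.5%), Atp5h (90.0%), Cox5b (87.8%), Uqcr11 (85.4%), Ndufs3 (84.4%) and Atp5f1 (50.1%). Reads that align to several places were not counted, so the levels of these genes are uncertain. The same holds for Ndufs5, left out with 0 counts, as 64.3% of its transcript is copied elsewhere. It was listed at a mean of 0.740 FPKM at T0. Atp5g2 was listed at 0.151 FPKM and Atp5g1 at 13.7, while Atp5g3 was at 597; the 3 genes encode the same mature c-ring subunit. Of the 8, 0 passed the test in any comparison by edgeR or DESeq2 against T0, and 1 had an unadjusted p under 0.05 at T2. None of the 13 members called by edgeR in any comparison has a copied stretch. These 13 include Cox8b, whose counts are described below without a test. Exons of 19 members also share bases with another gene in GENCODE vM1, among them Ndufs1 (6.57% of its exon bases), Uqcrc2 (7.30%) and Atp5d (3.53%), each with a gene on the opposite strand.

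Ucp2 (chromosome 7, from 107641846 to 107650529 on mm9, plus strand) was high at T0 and low in all other libraries. Its level was 21.9, 18.3 and 6.14 CPM at T0, 0.431, 0.747 and 1.40 CPM at T1, 0.669, 0.278, 0.819 and 0.430 CPM at T2, and 0.251 and 0.431 CPM at T3. These are 292, 262 and 87 counts at T0 and between 3 and 23 counts in the other 9 libraries. T0 replicate 3 was the lowest T0 library, and even it was 4.37 times the highest library at T1, 7.49 times that at T2 and 14.3 times that at T3.

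The mean of Ucp2 was 15.4 ± 8.26 CPM (SD, n = 3) at T0, 0.860 ± 0.495 (n = 3) at T1, 0.549 ± 0.242 (n = 4) at T2 and 0.341 ± 0.127 (n = 2) at T3. Against T0, the log2 ratios were -4.17, -4.81 and -5.50 in the order of time, and the T2 and T3 means were 28.1 and 45.3 times lower. Without T0 replicate 3 the ratios were -4.55, -5.19 and -5.88. The range at T2 overlaps those at T1 and T3. The highest T3 library (0.43053 CPM, 4 counts) lies just below the lowest T1 library (0.43094 CPM, 5 counts), so no order among the later time points is given. Among genes that averaged a log2 CPM of 1 or more (11473 at T1, 11637 at T2 and 11648 at T3), Ucp2 had the 9th, 3rd and 3rd largest fall. As Ucp2 was selected on its fall, these ranks only restate that choice. In FPKM its T0 mean was 13.9, and the later means were 0.764, 0.605 and 0.451. Copied stretches cover 6.07% of its transcript.

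Ucp3 lies 6904 bases before Ucp2 on chromosome 7 and had 0 to 2 counts in every library. Ucp1 had 0 to 6. Both were below the filter in all comparisons, so no direction is given, and neither was detectable above the floor of 3 counts in most libraries. Slc25a27, the neuronal carrier also named UCP4, is not a member; its level was 44.3, 37.6 and 13.0 CPM at T0 and 47.6 to 56.8 CPM at T1, and it did not pass the test at T1 (log2 fold change 0.73, SE 0.40, adjusted p = 0.2, edgeR with Benjamini-Hochberg) or at T2 (0.88, SE 0.36, adjusted p = 0.076). In T0 replicate 3 it was the lowest of the T0 libraries, as Ucp2 was.

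**Figure D1:**
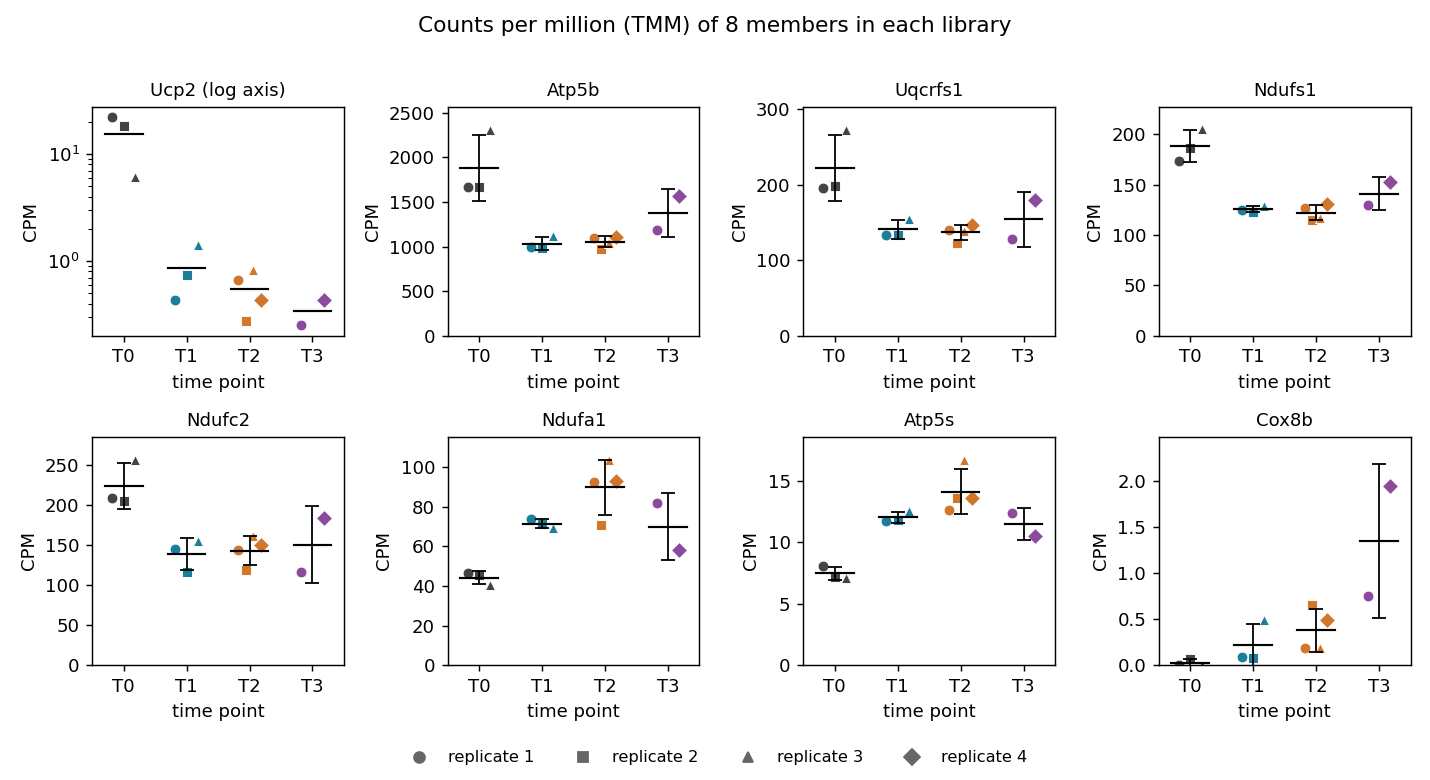
Level in TMM-normalised CPM (vertical axis) of 8 members at T0, T1, T2 and T3, with 1 point per library, the replicate number as its shape, a horizontal line at the mean and, except for Ucp2, bars of 1 SD. Ucp2 is on a log axis and falls from 6.14 to 21.9 CPM at T0 to at most 1.40 CPM in all later libraries, while Atp5b, Uqcrfs1, Ndufs1 and Ndufc2 are lower and Ndufa1 and Atp5s higher in every T1 and T2 library than in every T0 library.

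The question of each comparison with T0 is which genes change as ANS cells leave proliferation and differentiate. Of the 73 members other than Ucp2 that passed the filter at T1, 5 were lower and 2 higher than at T0 by the quasi-likelihood test of edgeR at an adjusted p under 0.05. That is 6.85% lower and 2.74% higher, against 16.8% lower and 15.1% higher of all 12364 genes tested. At T2, 9 of 73 were lower (12.3%) and 3 higher (4.11%), against 21.8% and 21.4% of 12607 genes. In these fits members were called at a smaller share than genes in general in both directions, a difference that was not tested. The order turned at T1 with libraries numbered 1 and 2 only, where 29 of 73 members were lower (39.7%) against 29.9% of all genes; at T2 these shares were 26% and 27.4%. It also turned for the members higher at T2 with the share of alignments that were not unique as a covariate (9.59% against 6.58%). All 7 members called at T1 were called in the same direction at T2; the 2 comparisons share the T0 libraries. Without T0 replicate 3, edgeR called 7 lower (9.59%) and 3 higher (4.11%) at T1, against 24.9% and 25.2% of all genes. At T2 it called 9 lower (12.3%) and 6 higher (8.22%), against 25.3% and 26.7%. Of the members called at T1 or T2, only Atp5d at T2 lost its call without that library, while the fall of Atp5b became 0.69 on the log2 scale at T1 and 0.65 at T2. In the same fits at T1 and T2, Uqcrfs1 was at -0.48 and -0.51 and Ndufc2 at -0.58 and -0.51. Ndufs1 was at -0.52 and -0.54, and Ndufa1 at 0.63 and 0.98.

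The centre of the members lay lower than that of all genes. At T1, 61 of 73 members had a fitted value below 0, with a median log2 fold change of -0.19, against -0.0082 over all genes tested. At T2 it was 56 of 73 with a median of -0.19 (all genes 0.0023), and at T3, with the muscle isoform Cox8b left out, 55 of 73 with a median of -0.13 (all genes -0.015). The median standard error of a member was 0.16 at T1 and 0.14 at T2, so a shift of this size in a single gene is close to its error. The libraries of T1 did not overlap those of T0 for 22 members that were lower (30.1%) and 3 that were higher (4.11%), against 28% and 28.6% of all genes. At T2 these counts were 22 (30.1%) and 3 (4.11%), against 27.2% and 27%, and at T3 26 (35.6%) and 3 (4.11%), against 25.8% and 24.3%. The share of members whose libraries lay above T0 was below that of all genes at each time point.

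**Figure D2:**
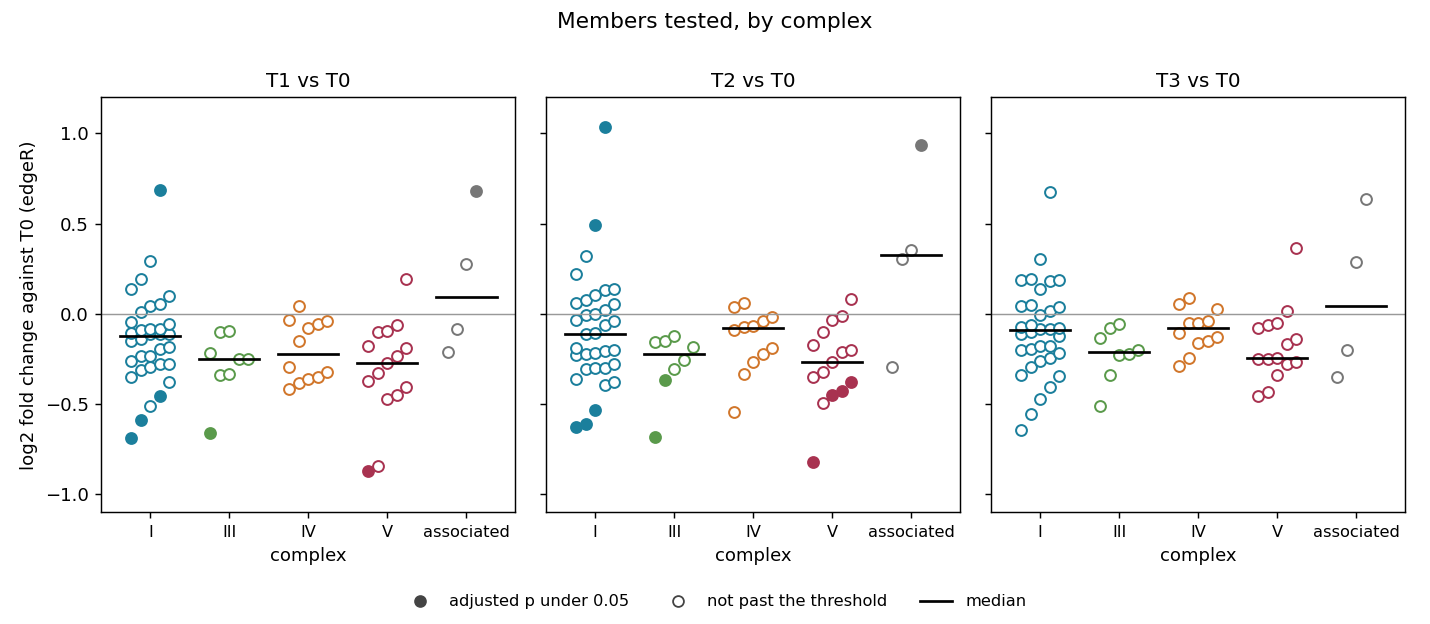
Log2 fold change against T0 (vertical axis, edgeR) of the members tested, by complex, at T1, T2 and T3, with filled points for an adjusted p under 0.05 and a line at the median. Cox8b at T3 is left out of the points and of the median; most points of complexes III and V lie below 0 in all 3 panels, and few are filled.

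Complex I, the NADH dehydrogenase, held some of the falls and the largest rise of the ubiquitous members. All 34 of its subunits were tested. At T1 3 were lower and 1 higher, and at T2 3 lower and 2 higher, with median log2 fold changes of -0.13 and -0.11. Its 7 nuclear subunits of the catalytic core were all fitted below 0 at T1 and at T2, with medians of -0.24 and -0.22. Of these, 2 were called at both times. Of the 27 accessory subunits, 19 were below 0 at T1 and 16 at T2, with medians of -0.11 and -0.04.

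Ndufs1 carries iron-sulphur clusters of the electron path. Its level was 174, 187 and 206 CPM at T0, 125, 123 and 129 CPM at T1, and 127, 115, 117 and 131 CPM at T2. All T1 and T2 libraries lay below all T0 libraries. By edgeR, Ndufs1 fell by 0.59 on the log2 scale at T1, with an SE of 0.11 and an adjusted p of 0.0083. Its fall at T2 was 0.61 (SE 0.10, adjusted p = 0.0022), and both calls were kept with any 1 library left out.

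Ndufc2, an accessory subunit of the membrane arm, was at 209, 205 and 256 CPM at T0, 145, 116 and 155 CPM at T1, 144, 118, 161 and 149.7 CPM at T2, and 117 and 184 CPM at T3. Its groups at T1 and T2 did not overlap with T0. By edgeR the T1 difference was -0.69 on the log2 scale, with an SE of 0.15 and an adjusted p of 0.016. The T2 difference was -0.63 (SE 0.14, adjusted p = 0.0071). Without T1 replicate 1 the T1 value was -0.72 and without T1 replicate 2 it was -0.58, and neither passed the threshold.

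Ndufa1 (chromosome X, from 34727583 to 34731158, minus strand), a small subunit of the membrane arm needed for assembly of the complex, had the largest rise of the ubiquitous members. Its level was 46.7, 45.4 and 40.6 CPM at T0, 73.6, 71.3 and 69.0 CPM at T1, 92.4, 70.4, 103 and 92.9 CPM at T2, and 81.8 and 57.9 CPM at T3. Every later library lay above every T0 library, and the T1 and T2 ranges overlap. By edgeR the T1 level was 1.61-fold that of T0, a log2 difference of 0.68 with an SE of 0.11 and an adjusted p of 0.005. The T2 level was 2.05-fold (log2 1.04, SE 0.14, adjusted p = 0.00085). At T3 the log2 fold change was 0.68 (SE 0.20) and the adjusted p 0.1.

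Ndufa11, a membrane-arm subunit, rose at T2. Its level was 44.6, 36.9 and 47.5 CPM at T0 and 59.5, 50.2, 68.9 and 61.2 CPM at T2, a 1.41-fold difference (log2 0.49, SE 0.14, edgeR adjusted p = 0.024). The highest T0 and the lowest T2 library are close. The call was lost without T0 replicate 2 (0.39) or T2 replicate 1 (0.48), 3 (0.43) or 4 (0.48). Its value at T1 was 0.29 (SE 0.15, adjusted p = 0.17), and the T2 and T1 libraries overlap. At T3 it was at 51.5 and 53.4 CPM, above every T0 library, with a log2 fold change of 0.30 (SE 0.18, adjusted p = 0.33).

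In complex III, which passes electrons from ubiquinol to cytochrome c, all 8 subunits were fitted below 0 at T1, T2 and T3, with medians of -0.25, -0.22 and -0.21. At T1 1 was called lower and at T2 2, against 16.8% and 21.8% of all genes. Uqcrfs1, the Rieske iron-sulphur protein, was at 195, 198 and 273 CPM at T0, 134, 134 and 155 CPM at T1, 141, 123, 138 and 146 CPM at T2, and 129 and 179.8 CPM at T3. No later library reached the T0 range. By edgeR, Uqcrfs1 fell by 0.66 on the log2 scale at T1, with an SE of 0.16 and an adjusted p of 0.023. Its fall at T2 was 0.68 (SE 0.14, adjusted p = 0.0057). The T1 call was lost without T1 replicate 1 (-0.62), 2 (-0.62) or 3 (-0.73). Uqcrc2, a core protein of the complex, was at 237 to 274 CPM at T0 and 172 to 209 CPM at T2, with a fall of 0.37 on the log2 scale (adjusted p = 0.025) that lost its call without T0 replicate 2 (-0.38) or T2 replicate 1 (-0.40), 2 (-0.31) or 4 (-0.39).

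In complex IV, cytochrome c oxidase, no subunit was called at T1 or T2 by edgeR, of 12 tested at each; 1 and 2 had an unadjusted p under 0.05. DESeq2, fitted without the filter on low counts, called 0 at T1. At T2 it called 2 higher, the muscle isoforms Cox8b and Cox6a2. These had at most 1 count in each T0 library, so their calls are not taken as results. Medians were -0.23 and -0.08. Cox4i1 was at 463, 453 and 439 CPM at T0, 463, 398 and 539.6 CPM at T1, and 439.6, 360.2, 483 and 452 CPM at T2, so that the groups overlap. Its log2 fold change was 0.04 at T1 and -0.04 at T2, with standard errors of 0.14 and 0.12. Ndufa4, first described in complex I and now counted with complex IV, was at 213 to 249 CPM at T0, 193 to 248 at T1 and 197 to 253 at T2. Cox7b was nearest to a call, with 95.0, 102 and 112 CPM at T0 and 81.3, 62.7 and 88.4 CPM at T1 (log2 fold change -0.42, SE 0.16, edgeR adjusted p = 0.078).

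The muscle and heart isoforms of complex IV were at the floor or near it. Cox8b (chromosome 7, from 148084842 to 148086345, minus strand) had 0, 1 and 0 counts at T0, 1, 1 and 8 at T1, 2, 7, 2 and 8 at T2, and 9 and 18 at T3. Against 3 counts in each T0 library, its level at T3 was at least 6.25-fold higher. It passed the filter on low counts at T3 only through its T3 libraries and not at T1 or T2. These counts are therefore given as a description, and no test of Cox8b is taken as a result. Cox6a2, another muscle isoform, had 0 to 1 counts at T0 and 7 and 11 at T3, at least 4.11-fold higher, and was not tested by edgeR. Beside these, 6 muscle markers summed to 1.73 to 2.54 CPM at T0 and 12.4 to 26.0 CPM at T3. Most of that was Myh6, a cardiac myosin, and Tnnt2 and Myog had at most 3 counts in every library; the part of muscle-type expression in the rise was not tested. No library held more than 5 counts of Cox4i2, Cox6b2 or Cox7b2, and Cox7a1 had 3 to 14.

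Complex V had the lowest medians at T1 and T2. All 15 subunits were tested, 14 were fitted below 0 at T1 and 14 at T2, and the medians were -0.28 and -0.27. Atp5b (chromosome 10, from 127520329 to 127527447, plus strand) was at 1667, 1674 and 2308 CPM at T0, 1000.5, 982 and 1117 CPM at T1, 1099, 972, 1042 and 1105 CPM at T2, and 1188 and 1570.0 CPM at T3. The T1 and T2 libraries lay well below T0 and varied little, and T3 replicate 4 was close to T0. By edgeR, Atp5b fell by 0.87 on the log2 scale at T1, with an SE of 0.17 and an adjusted p of 0.011. Its fall at T2 was 0.82 (SE 0.15, adjusted p = 0.0028), and both were the largest falls of a tested member. Without T1 replicate 1 (-0.84) or 2 (-0.83) the T1 call was lost. At T3 the log2 fold change was -0.43 (SE 0.24, adjusted p = 0.31).

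The F1 head of the ATP synthase, which holds the catalytic sites, is made of Atp5a1, Atp5b, Atp5c1, Atp5d and Atp5e. All 5 were fitted below 0 at T1, T2 and T3, with medians of -0.41, -0.43 and -0.28. Of these, 1 was called lower at T1 and 4 at T2, against 16.8% and 21.8% of all genes. Of the other 10 subunits 0 were called at either time by edgeR, 1 at each had an unadjusted p under 0.05, and DESeq2 called 1 lower at T1 and 0 at T2, with edgeR medians of -0.21 at T1 and T2. The difference between the head and the other subunits was not tested. Atp5a1, the alpha subunit, was at 1221, 1285 and 1616 CPM at T0 and 1006, 909.7, 1021 and 1043 CPM at T2 (log2 fold change -0.45, edgeR adjusted p = 0.025). Atp5c1, the gamma subunit of the central stalk, was at 251, 272 and 294 CPM at T0 and 186 to 220.0 CPM at T2 (-0.38, adjusted p = 0.022). Atp5d, the delta subunit of the stalk, was at 203, 204 and 271 CPM at T0 and 143 to 189 CPM at T2 (-0.43, adjusted p = 0.041). All 4 T2 groups lay below T0. The calls of these 3 were lost without 1 library: Atp5a1 without T2 replicate 1 (-0.47), 2 (-0.41) or 3 (-0.46), Atp5c1 without T0 replicate 2 (-0.38) or T2 replicate 1 (-0.40), and Atp5d without T0 replicate 3 (-0.28) or T2 replicate 1 (-0.43), 2 (-0.36) or 4 (-0.46).

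Atp5g1, a c-ring gene, had a T1 value nearly as low as that of Atp5b, at -0.84, but a larger error (SE 0.28, edgeR adjusted p = 0.055). Its level was 10.1, 11.6 and 17.7 CPM at T0 and 6.46, 6.35 and 9.15 CPM at T1, and 32.6% of its transcript is copied elsewhere.

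Of the 4 associated proteins, Atp5s, also named factor B and a regulator of ATP synthase, rose. It was at 8.10, 7.19 and 7.12 CPM at T0, 11.7, 11.8 and 12.6 CPM at T1, 12.6, 13.6, 16.7 and 13.6 CPM at T2, and 12.4 and 10.5 CPM at T3. Every later library was above T0. By edgeR the T1 level was 1.61-fold that of T0, a log2 difference of 0.68 with an SE of 0.16 and an adjusted p of 0.02. The T2 level was 1.91-fold (log2 0.94, SE 0.16, adjusted p = 0.0026). Its T1 call was lost without T0 replicate 2 (0.65) or T1 replicate 1 (0.71), 2 (0.70) or 3 (0.65). Atp5sl was at up to 20.4 CPM at T0 and 20.5 to 21.6 CPM at T1 (adjusted p = 0.23), and Cox7a2l, which takes part in supercomplexes, at 83.5 to 91.0 CPM at T0 and 58.6 to 82.8 CPM at T2 (adjusted p = 0.096).

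**Figure D3:**
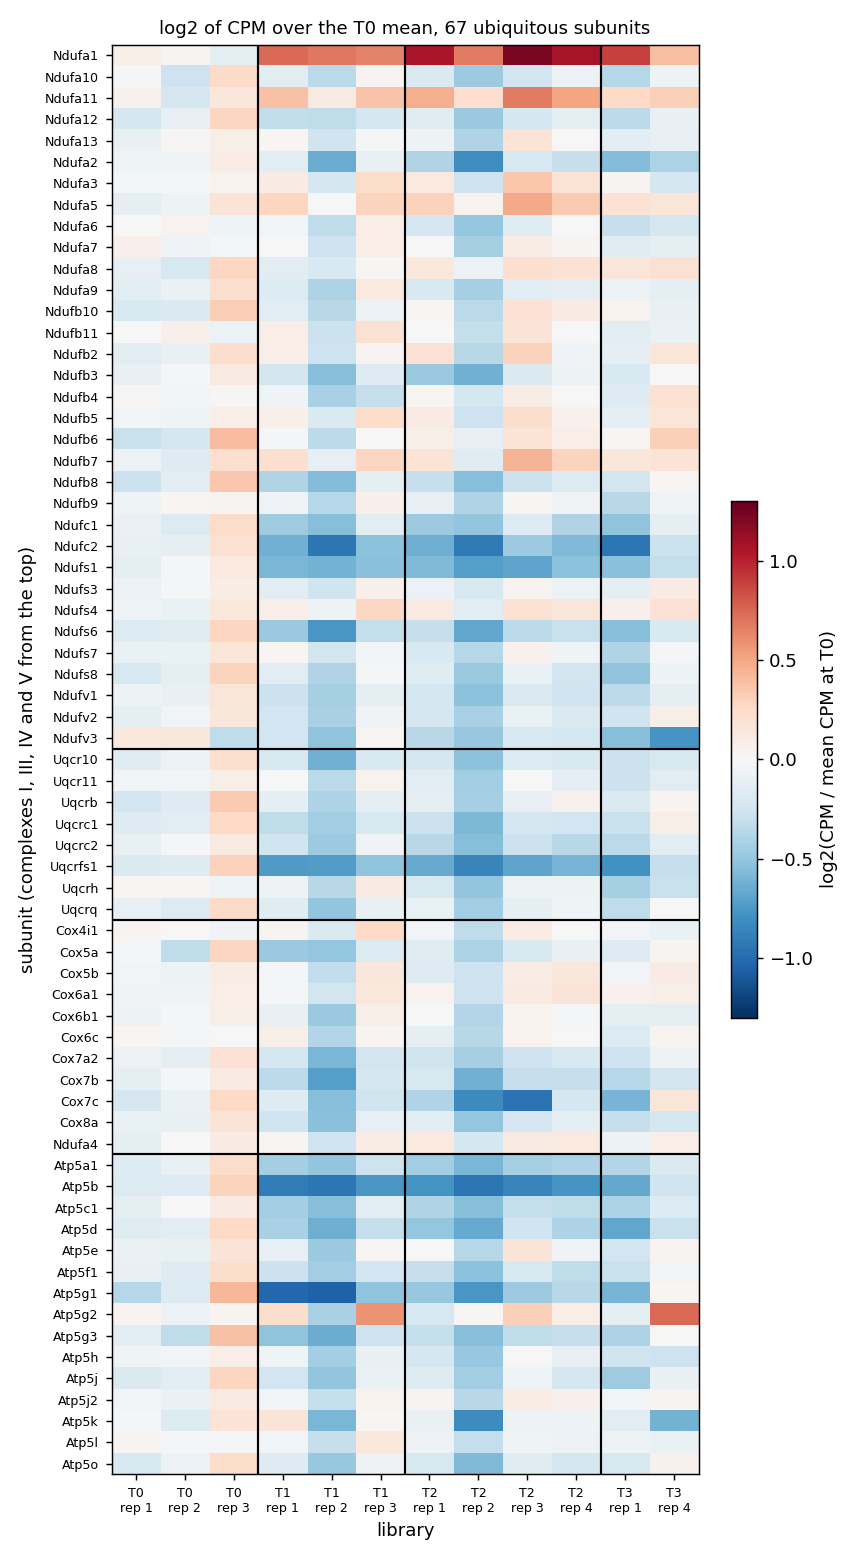
Log2 of the CPM of each of 67 ubiquitous subunits (rows, by complex) over its mean at T0, in each of the 12 libraries (columns, by time point), from -1.05 to 1.22. Rows of Ndufa1 and Ndufa11 are above the T0 mean and rows of Atp5b, Uqcrfs1, Ndufs1 and Ndufc2 below it in all later libraries, and the columns of T0 replicate 3, T1 replicate 2 and T2 replicate 2 differ from their groups over most rows.

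At T3, where 2 libraries were compared with 3, 0 of 73 members were lower and 0 higher by edgeR with Cox8b left out, against 1.41% and 3.31% of 12721 genes; 3 and 2 had an unadjusted p under 0.05. DESeq2 called 0 lower and 1 higher, Cox6a2, which had 0 to 1 counts at T0, so this call is not taken as a result. Without T0 replicate 3, edgeR called 1 lower and 0 higher, while 1067 were lower and 1250 higher of 12573 genes in that fit. The members named above kept their direction: Atp5b at -0.43, Ndufc2 at -0.55, Uqcrfs1 at -0.51, Ndufs1 at -0.40, Ndufa1 at 0.68 and Atp5s at 0.63. None passed the threshold, with edgeR adjusted p values from 0.1 to 0.31. Ndufv3, a small subunit of the NADH-oxidising module, had the lowest value at T3 (-0.64, SE 0.21, adjusted p = 0.12), with 148, 149 and 107 CPM at T0 and 91.5 and 79.1 CPM at T3.

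Between the later time points little moved. From T1 to T2, 0 of 72 members were lower and 0 higher by edgeR, against 0.0565% and 0.573% of 12382 genes; 0 and 2 had an unadjusted p under 0.05, and DESeq2 called 0 and 0. Ndufa1 had the lowest p of these, with a log2 fold change of 0.34 (SE 0.12, adjusted p = 0.27). From T2 to T3, 0 of 72 were lower and 0 higher, against 0.691% and 0.5% of 12599 genes, with 1 and 1 at an unadjusted p under 0.05 and 0 and 0 called by DESeq2. Atp5b was at 0.39 (SE 0.14, adjusted p = 0.21) and both T3 libraries lay above all 4 T2 libraries. The median log2 fold change of the members was 0.02 from T1 to T2 and 0.03 from T2 to T3.

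Summed over the 74 subunits of complexes I, III, IV and V, the level was 10895, 10978 and 13314 CPM at T0, 9432, 8211 and 10432 CPM at T1, 9587, 8036, 9970.2 and 9863 CPM at T2, and 9247 and 10777 CPM at T3. For this full sum, every T1, T2 and T3 library was below the lowest T0 library, by as little as 10777 against 10895. For T1 this was lost without Atp5a1 and Atp5b, as given below. The mean at T1 was 79.8% of that at T0, at T2 79.8% and at T3 85.4%. By complex, complex V was at 69.1%, 69.3% and 80.1% of its T0 mean, complex III at 81.2%, 79.7% and 83.7%, complex I at 87.7%, 87.6% and 88.4%, and complex IV at 92.2%, 93.4% and 94.7%. Libraries overlapped T0 for complex I at T1 and T2 and for complex IV at T1, T2 and T3. In T1 replicate 3, complex I was at 3459 CPM, against 3370 in T0 replicate 1. Complex IV was at 1960 CPM there, against 1814 in T0 replicate 2. The T0 mean of complex V was raised by T0 replicate 3, with 5961 CPM against 4462.5 and 4511.7. Summed without Atp5a1 and Atp5b, T1 replicate 3 (8173.8 CPM) lay above T0 replicates 1 (8006.9) and 2 (8019). The T2 and T3 libraries stayed below all T0 libraries, with T3 replicate 4 close to them (8002.4). The T0 mean was then 8471.8 CPM, and the later means were 7286.2, 7314.7 and 7502.7 in the order of time. Atp5a1 and Atp5b together were 26.5% to 29.5% of the sum at T0, 21.3% to 23.7% at T1, 20.7% to 23.4% at T2 and 24.3% to 25.7% at T3. Without T0 replicate 3, the log2 ratio of the sum went from -0.33 to -0.22 at T1, from -0.32 to -0.22 at T2 and from -0.23 to -0.13 at T3; without T3 replicate 1 the last was -0.12.

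**Figure D4:**
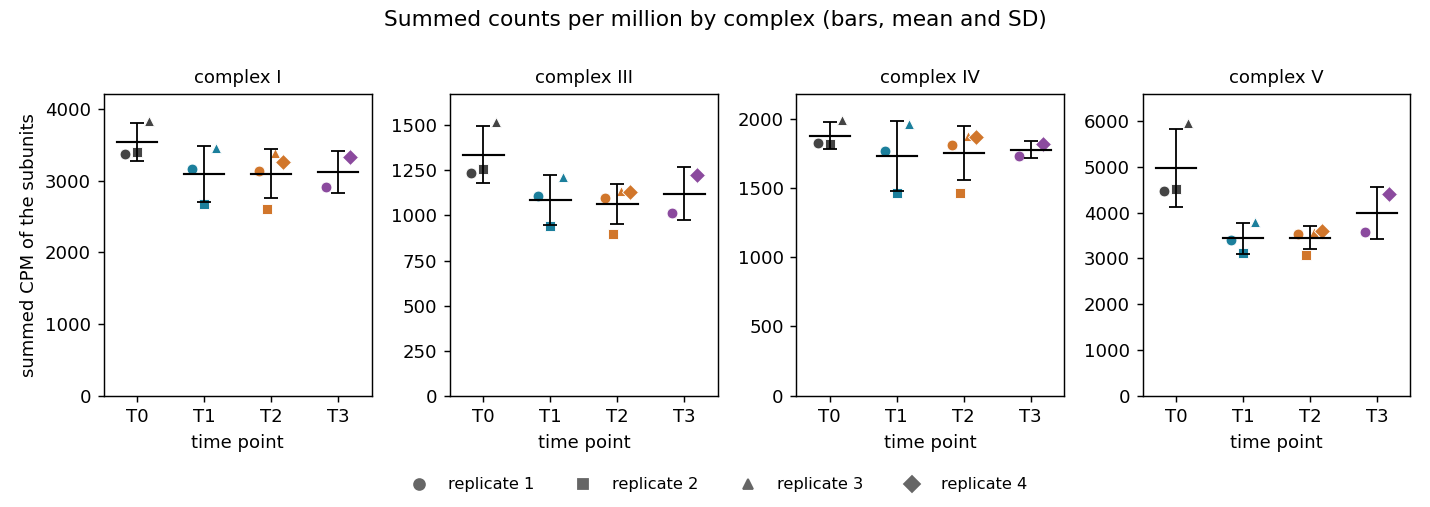
Summed CPM of the subunits of complexes I, III, IV and V (vertical axis, from 0) at T0, T1, T2 and T3, with 1 point per library and bars for the mean and 1 SD. Complex V is lowest against T0, at 69.1% at T1 and 69.3% at T2, and complex IV least, at 92.2% and 93.4%; T0 replicate 3 is the highest and T2 replicate 2 the lowest library in every panel.

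A technical measure moved with these levels. Alignments that were not unique made up 34.0% to 39.0% of all entries at T0, 27.5% to 33.3% at T1, 26.0% to 30.9% at T2 and 28.2% to 32.8% at T3. Within each of the 4 time points the libraries stood in the same order by this share and by the summed CPM of the 74 subunits, and the same held for complexes I and III alone. T0 replicate 3 was the highest of the 12 libraries for 42 of the 68 ubiquitous subunits, T2 replicate 2 the lowest for 34 and T1 replicate 2 the lowest for 24. The shares at T0 do not overlap those at T1, T2 or T3, so this measure and the time point cannot be told apart. With the share as a covariate, chosen after seeing the data, 0 members were lower at T1 and 0 at T2, while 656 and 998 of all genes still were. The rise of Ndufa1 at T2 kept its call in that fit, with a log2 fold change of 1.25 against 1.04 without the covariate, and the value of Atp5b was -0.49 at T1 and -0.37 at T2, neither past the threshold.

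**Figure D5:**
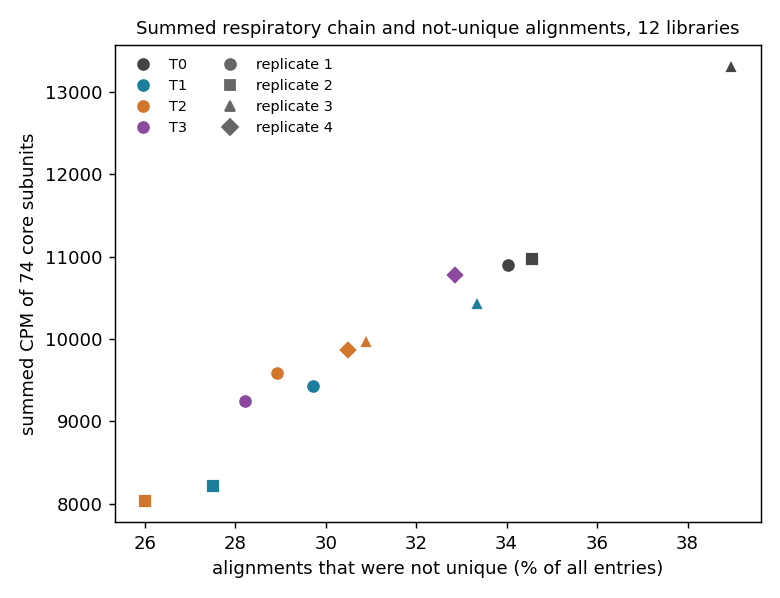
Summed CPM of the 74 subunits (vertical axis, which does not start at 0) against the share of alignments that were not unique (horizontal axis, percent of all entries) in the 12 libraries, with the time point as colour and the replicate number as shape. T0 replicate 3 lies at the upper right (39.0%, 13314 CPM) and T2 replicate 2 at the lower left (26.0%, 8036 CPM).

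Other genes of the same pathways are given by lists that were chosen with earlier results of these data known. Beside them, the shares of all genes called lower were 16.8% (T1) and 21.8% (T2), and called higher 15.1% and 21.4%. Of the 4 genes of complex II, Sdha, its flavoprotein, was lower at T1 and T2 and the other three were not called. Sdha was at 366, 378 and 388 CPM at T0, 266, 255 and 276 CPM at T1, and 252, 240.2, 256 and 269 CPM at T2, with falls of 0.51 (edgeR adjusted p = 0.012) and 0.55 (adjusted p = 0.0022) on the log2 scale. Among 9 electron carriers and subunits that the symbols missed, 1 was lower at T1 (Etfa, of the electron transfer flavoprotein) and 4 (44.4%) at T2 (Cyc1 or cytochrome c1, Ndufab1, Etfa and Cox17), and none was higher. Of 27 assembly factors tested, 4 were lower at T1 (14.8%) and 7 at T2 (25.9%), shares near those of all genes, and none was higher. Among them were Tmem70, an assembly factor of ATP synthase, at -0.76 and -0.65 and Bcs1l, which inserts the Rieske protein, at -0.58 and -0.50.

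The enzymes of the citric acid cycle and pyruvate dehydrogenase were called at a larger share than the subunits, a difference that was not tested. Of 16, 6 were lower at T1 (37.5%) and 12 at T2 (75%), with none higher and median log2 fold changes of -0.52 and -0.43. Citrate synthase, Cs, was at 497, 471 and 655 CPM at T0, 323, 316 and 335 CPM at T1, and 302 to 339 CPM at T2. Pdha1, of pyruvate dehydrogenase, fell by 0.80 on the log2 scale at T1 and by 0.95 at T2. Of 12 other inner membrane carriers, 3 were lower at T1 (25%), and at T2 7 were lower (58.3%), the ADP/ATP carrier Slc25a5 and the phosphate carrier Slc25a3 among them, and 1 higher, the aspartate and glutamate carrier Slc25a12.

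Among 14 transcriptional regulators, 4 were lower at T1 (28.6%) and 5 at T2 (35.7%), and 1, the coactivator Ppargc1b, was higher at both. Ppargc1b was at 1.73, 1.60 and 2.47 CPM at T0 and 4.83, 4.63 and 3.48 CPM at T1 (log2 fold change 1.14, SE 0.28, edgeR adjusted p = 0.023) and at 1.02 on the same scale at T2 (adjusted p = 0.035). Nrf1, the factor whose motif is shown above, had a log2 fold change of -0.46 at T1 (adjusted p = 0.098) and -0.45 at T2 (adjusted p = 0.046). Ppargc1a was not called, with log2 fold changes of -0.73 (SE 0.38) at T1 and 0.05 (SE 0.35) at T2. Of the genes of the 6 lists, 0 of 82 tested were called at T3 by edgeR, 6 lower and 1 higher had an unadjusted p under 0.05, and DESeq2 called 5 lower and 1 higher.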

How the data were processed

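RNAseq libraries of mouse ANS cells were grouped by the time point in their labels. Per the submitters' processing notes, CASAVA 1.8, TopHat2 2.0.6, Bowtie 0.12.7.0, HTSeq 0.6.0 and DESeq2 1.0.0 were used with the genome build mm9. The authors deposited raw read counts per gene and library, not normalized; the strand setting is not given in the sources used here, so reads of overlapping genes on opposite strands cannot be told apart. The authors also deposited FPKM values per gene, whose tool is not given in the sources used here. The 5 entries that name no gene were left out of library sizes; reads on no gene were 13.3% to 24.1% of uniquely aligned reads. Columns of other samples: 0.

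Members and gene lists were chosen with earlier results of these data known. For each pair of time points, counts of its own libraries were filtered with filterByExpr and then normalized by TMM. All genes kept were fitted with the quasi-likelihood test of edgeR 4.0.16 (R 4.3.3), with Benjamini-Hochberg adjustment over all genes and a threshold of 0.05. CPM are counts over the TMM-normalised library size, from 1 normalization of all 12 libraries without the filter (factors from 0.932 to 1.04). Standard errors are the log2 fold change over the square root of F. A group whose libraries all held 3 counts or fewer was taken as at the floor. Floors cover counting error only. Named with full statistics were the 3 largest falls and rises past the threshold in each comparison, Ucp2 and tissue isoforms without a test, and other members or list genes as examples; lists are counted whole. Copies were found with BLASTN 2.17.0. Scripts were tested on simulated data. Alternatives were RLE normalization, no filter, 1 fit of all 12 libraries, DESeq2 1.42.0, a replicate block, libraries numbered 1 and 2 only, each library left out and, added after seeing the data, the not-unique share as a covariate. Deviations of same-numbered libraries of T1 and T2 correlated at 0.199, 0.341 and 0.165. T1 replicate 3 and T2 replicate 4, with unlike numbers, correlated at 0.37, and all other unlike pairs at 0.0693 or less. The labels do not say whether the numbers pair the samples, so a pairing is not established. 3′UTR usage was not analysed here. The values of 1 further member are not reported here; it is included in the counts.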

Additional observations from a re-analysis of the deposited data

Results flagged for a closer look

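T2 replicate 2 stood apart from the other 3 T2 libraries in the summed CPM of complex III (899.7, with the others from 1096 to 1134), of complex IV (1460, with the others from 1812 to 1871) and of complex V (3073, with the others from 3538 to 3600.3). In each, the gap from this lowest library to the nearest one was too large a part of the range of the 4 by Dixon's criterion, which chance meets in about 1 in 20 groups; 19 such results were examined and 3 were found, and they share the library. The same library had the lowest share of alignments that were not unique, 26.0% against 28.9% to 30.9% in the other T2 libraries, and the highest share of uniquely aligned reads on no gene, 24.1%. The part of these measures in the low sums was not tested.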

How the results depend on the processing

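Of 20 changes of single members past the threshold, 265 alternatives were computed; 207 kept direction and call, 57 kept the direction and lost the call, and 1 reversed (Atp5d at T2, 0.12 with the not-unique share as a covariate). The cause was not tested. The 20 include Cox8b at T3, which passed the filter only through its T3 libraries, and no test of it is taken as a result. Members lower at T1 (5) were 12 in 1 fit of all 12 libraries, 29 with libraries numbered 1 and 2 only, 0 with the covariate and 1 to 7 with a library left out (1 without T1 replicate 1 or T1 replicate 2). Members higher at T1 (2) were 4 with libraries numbered 1 and 2 only, 0 with the covariate and 1 to 3 with a library left out. Members lower at T2 (9) were 19 with libraries numbered 1 and 2 only, 0 with the covariate and 5 to 9 with a library left out. Members higher at T2 (3) were 5 with no filter, 5 by DESeq2 (Cox8b and Cox6a2 among them) and 5 with libraries numbered 1 and 2 only. They were 7 with the covariate and 2 to 6 with a library left out (6 without T0 replicate 3). At T3, members lower (0) were 3 in 1 fit of all libraries and 0 to 1 with a library left out, and members higher (1, Cox8b, which passed the filter only through T3) were 2 with no filter, 2 in 1 fit, 2 by DESeq2, 0 with the covariate and 0 with each library left out. Members higher from T1 to T2 (0) were 1 with the covariate and 0 to 1 with a library left out, and from T2 to T3 (0) 0 to 1. The log2 ratio of the summed subunits at T3 was -0.39 in FPKM, against -0.23, and ranged from -0.34 to -0.12 with a library left out. Those at T1 and T2 and all 3 of Ucp2 moved by less than the spread between replicates; leave-one-out values ranged from -0.41 to -0.22 and from -0.38 to -0.22 for the sums, and for Ucp2 from -4.71 to -3.83, -5.19 to -4.47 and -5.94 to -5.16.

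With a replicate block, 6 members were lower and 1 higher at T1, and 5 lower and 3 higher at T2. From T1 to T2 and from T2 to T3, 0 and 0 were called. Whether the numbers pair the samples is not established for any comparison. Against T0, same-number correlations were -0.018, 0.121 and 0.066 at T1 and -0.064, 0.016 and -0.151 at T2. For T3 against T0, no paired analysis was possible because the groups share only the number 1. A leave-one-out fit that leaves 1 T3 library assumes that it varies like the other group. With 2 libraries, T3 bounds changes of the members loosely.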
